A study of Homo sapiens with 8 samples.

Results

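The best supported m6A peaks of MIAPaCa-2 cells were the peaks whose pileup, the number of extended sequencing fragments stacked at the summit, was 4 or more. They were chosen by the pileup alone, with no filter on fold enrichment or q value. The rule kept 201 of 3386 deposited peaks, which were 91 of 2299 peaks in the control list and 110 of 1087 in the METTL3-KD list. The pileup, the fold enrichment and the q value of these members are therefore given as a description, with no test.

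MIAPaCa-2 is an established human pancreatic carcinoma cell line, and the labels describe its cells as epithelial. The control cells carried the shRNA-Control hairpin and the METTL3-KD cells the shRNA-METTL3 hairpin, which is directed at the m6A methyltransferase METTL3. RNA bound by an anti-m6A antibody (MeRIP-seq) and input RNA kept before the immunoprecipitation were sequenced, and 8 samples are labelled, lanes L001 and L002 of each of 4 libraries. The lanes were read as lanes of 1 library, so each condition had 1 m6A library and 1 input library, and no difference between the conditions has a replicate check. Whether a line was 1 clone or a pool is not given in the sources used here.

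m6A is methylation at the N6 position of adenosine. METTL3 is the catalytic subunit of the nuclear complex that places most m6A on mRNA, and METTL14 and WTAP are its partners. The complex favours adenosines in the sequence DRACH, which is A, G or T, then A or G, then A, then C, then A, C or T, and mRNA sites are known to be dense near stop codons and in 3'UTRs. Small structured RNAs are made by other routes: 7SL is the RNA of the signal recognition particle, which brings secretory proteins to the endoplasmic reticulum, U1 and U2 are RNAs of the spliceosome, and mitochondrial transcripts come from a separate genome.

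The libraries held 1252805 to 2880835 reads before duplicate removal. The peak caller kept 1 read per position, which left 7920 reads of the control m6A library, 9291 of the control input, 4508 of the METTL3-KD m6A library and 52141 of the METTL3-KD input. This is 278 to 310 reads for each read kept in 3 libraries and 25.7 in the METTL3-KD input. METTL3, the targeted gene, had 0 reads in all 4 input lanes, so its knockdown could not be checked. Of 7 epithelial markers, KRT8 and KRT18 had over 1000 reads in both inputs, whereas EPCAM and CDH1 were at 0 in both. KRT7, KRT19 and CLDN4 had 0 or 1 control reads and 0, 201 and 29 METTL3-KD reads. Of 4 mesenchymal markers, VIM had 8978 control and 5649 METTL3-KD reads, ZEB1 had 0 and 50, and CDH2 and FN1 were at 0 in both. Of the fibroblast markers, COL1A2 had 1804 control and 353 METTL3-KD reads, and COL1A1 and DCN were at 0 in both. The leukocyte markers PTPRC, CD14 and CD3E and the endothelial marker VWF were at 0 in both inputs. The reads carry no molecular identifiers, so PCR copies are not separate molecules and the intervals and limits below cover counting error only.

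Members stood at the upper end of lists that were mostly 1 or 2 fragments deep. In the control list, 1196 peaks had a pileup of 1, 714 had 2, 298 had 3 and 70 had 4, and 21 had 5 or more. In the METTL3-KD list, 770 peaks had a pileup of 1, 105 had 2, 102 had 3 and 45 had 4, and 65 had 5 or more. Just outside the threshold, the peaks of highest fold at a pileup of 3 lay in C1orf159 and AURKAIP1 in the control list and in GNG12 and CRYZ in the METTL3-KD list, each with a fold of 4. Just inside, AGRN and ENSG00000270103 in the control list and TCTN3 and NUDT8 in the METTL3-KD list had a fold of 5. Many peaks tied at these values, 253 and 52 at a pileup of 3 and 65 and 18 at a pileup of 4, and the order among them is by position. The lowest −log10 q of a member was 3.15 in the control list and 3.9 in the METTL3-KD list, so every member was also below a q value of 0.01. PLK1, the mitotic kinase that the study followed, had 1 control peak with a pileup of 3 and no METTL3-KD peak, and was no member. METTL3 had 1 METTL3-KD peak, with a pileup of 1.

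The highest pileups came from small structured RNAs and mitochondrial sequence. A member was matched when at least 100 bases around its summit aligned at 95% identity or more to 7SL, U1, U2 or mitochondrial sequence, or when it lay on the mitochondrial chromosome. This applied to 8 of 91 control members, with pileups of 9 to 96, and to 18 of 110 METTL3-KD members, with pileups of 13 to 71. All 7 control members and all 18 METTL3-KD members with a pileup of 10 or more were of this kind. The other 83 control members had pileups of 4 to 7 and the other 92 METTL3-KD members 4 to 8.

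**Figure D1:**
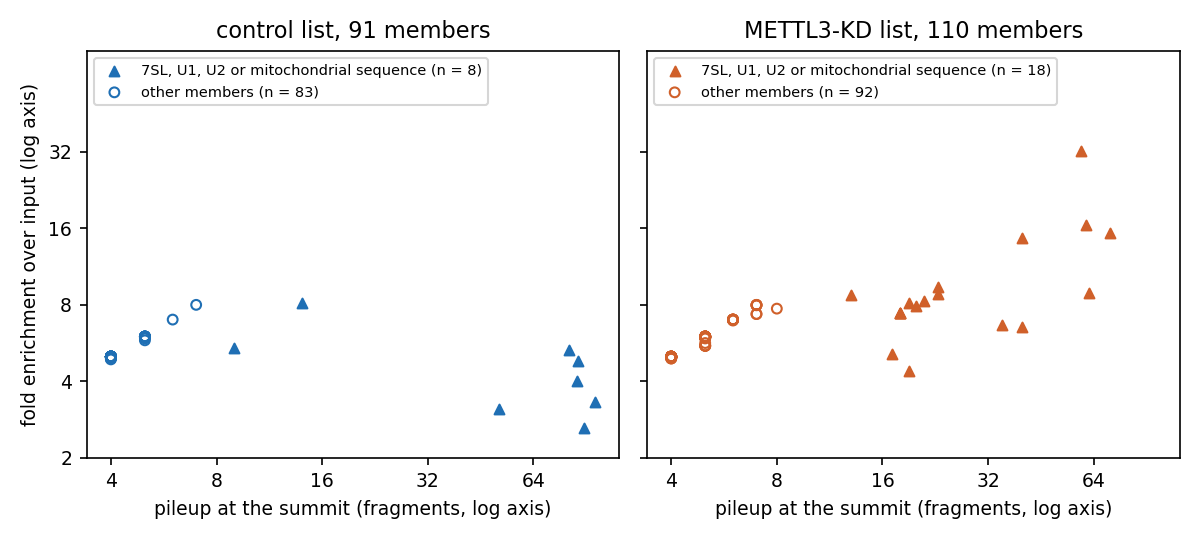
Pileup at the summit (fragments, log axis) against fold enrichment over input (log axis) for the 91 control and 110 METTL3-KD members, 1 point per peak. Filled triangles are members that match 7SL, U1, U2 or mitochondrial sequence, and open circles are the other members, which reach a pileup of 7 in the control list and 8 in the METTL3-KD list.

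The 7SL and U1 sequences are shown because many members are copies of them, and a short read can come from any identical copy. The U1 stretch is the 101 bases around the summit of the METTL3-KD member in RNU1-1 on GRCh37 (chr1:16840645-16840745, minus strand), with the DRACH matches in capitals. The same 101 bases were present at all 8 U1 members.

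RNU1-1: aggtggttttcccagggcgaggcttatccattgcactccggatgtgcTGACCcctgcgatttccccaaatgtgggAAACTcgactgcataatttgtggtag

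The 7SL stretch is the 101 bases around the summit of the control member in RN7SL2 (chr14:50329384-50329484, minus strand). It is followed by the best matching 101 bases at RN7SL3 (chr14:50320449-50320549, minus strand), RN7SL674P (chr2:11724982-11725082, plus strand) and RN7SL128P (chr6:20421935-20422035, minus strand). Capitals mark bases that differ from RN7SL2, 1 in RN7SL3 and 3 in each of the other copies.

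RN7SL2: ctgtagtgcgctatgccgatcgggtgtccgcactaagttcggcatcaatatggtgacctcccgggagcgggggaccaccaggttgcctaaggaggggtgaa
RN7SL3: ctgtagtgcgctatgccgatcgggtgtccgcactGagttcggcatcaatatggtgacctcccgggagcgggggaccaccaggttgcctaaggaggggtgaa
RN7SL674P: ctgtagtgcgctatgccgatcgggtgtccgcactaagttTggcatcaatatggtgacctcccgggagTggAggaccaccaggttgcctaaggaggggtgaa
RN7SL128P: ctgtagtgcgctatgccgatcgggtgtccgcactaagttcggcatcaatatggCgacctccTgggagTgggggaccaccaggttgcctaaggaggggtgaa

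At RN7SL4P, RN7SL5P and a site in an intron of RPS29, 0 of the 101 bases differed from RN7SL2. The RPS29 site (chr14:50053345-50053516) lies on the strand opposite to RPS29, which encodes a ribosomal protein, and is described here as 7SL sequence.

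Both lists had members at 5 of these 7SL sites, and the order of the lists depended on the measure. At RN7SL2 the control pileup was 96 and the METTL3-KD pileup 71. At the RPS29 site they were 89 and 62, at RN7SL3 86 and 59, at RN7SL5P 85 and 61, and at RN7SL4P 81 and 40. The pileup was thus higher in the control list at each of the 5 sites. The control m6A library also kept more reads (7920 against 4508), and the part of this was not tested. Duplicate reads at a position were dropped and each kept read was extended to 100 bases. A pileup from reads of the same strand therefore cannot exceed 100. The control pileups of 81 to 96 lie close to that limit and may understate the fragments present. How far this shaped the pileups, and the folds built on them, was not tested. The fold enrichment over input had the opposite order. It was 3.33 in the control list and 15.26 in the METTL3-KD list at RN7SL2, 2.63 and 8.93 at the RPS29 site, 4.82 and 32.18 at RN7SL3, 4.01 and 16.46 at RN7SL5P, and 5.29 and 14.56 at RN7SL4P. The fold is taken over inputs that kept 9291 and 52141 reads, whose part in it was not tested. These 5 sites share sequence and are not independent measurements. The control input lanes held 59807 and 61274 reads of RN7SL2 and the METTL3-KD input lanes 26720 and 27355. Counts of single 7SL copies are uncertain, because the copies are nearly identical and the treatment of reads with several equal positions is not given in the sources used here.

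The control list also had members at the 7SL copies RN7SL674P and RN7SL128P, with pileups of 14 and 9, and the METTL3-KD list had no member there. Their input reads were 1 and 2 in the control lanes and 21 and 22 in the METTL3-KD lanes for RN7SL674P, and 1 and 1 against 26 and 18 for RN7SL128P. Summits of the 7SL members lay at positions 90 to 163 of RN7SL2 in the control list and at 116 to 198 in the METTL3-KD list.

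U1 members were present in the METTL3-KD list alone. They lay in RNU1-1 and RNU1-3 (pileup 23 each), RNVU1-18 (21), RNU1-28P (20), RNVU1-7 (19), and RNU1-2, RNVU1-9 and RNU1-27P (18 each), with folds of 7.43 to 9.39. All 8 summits fell at positions 83 to 86 of U1. The 50 bases around these summits occur 9 times in the reference genome, and 8 of the 9 copies carried a member, so the 8 members cannot be counted as 8 separate findings. The control list held 0 U1 peaks at any pileup among 2299, which allows a share of up to 0.13%. U1 was read in both inputs: RNU1-1 was counted 5465 and 5584 times in the control input and 17874 and 18090 times in the METTL3-KD input, and the other U1 copies with members had 9947 to 11378 control reads and 34168 to 35852 METTL3-KD reads.

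**Figure D2:**
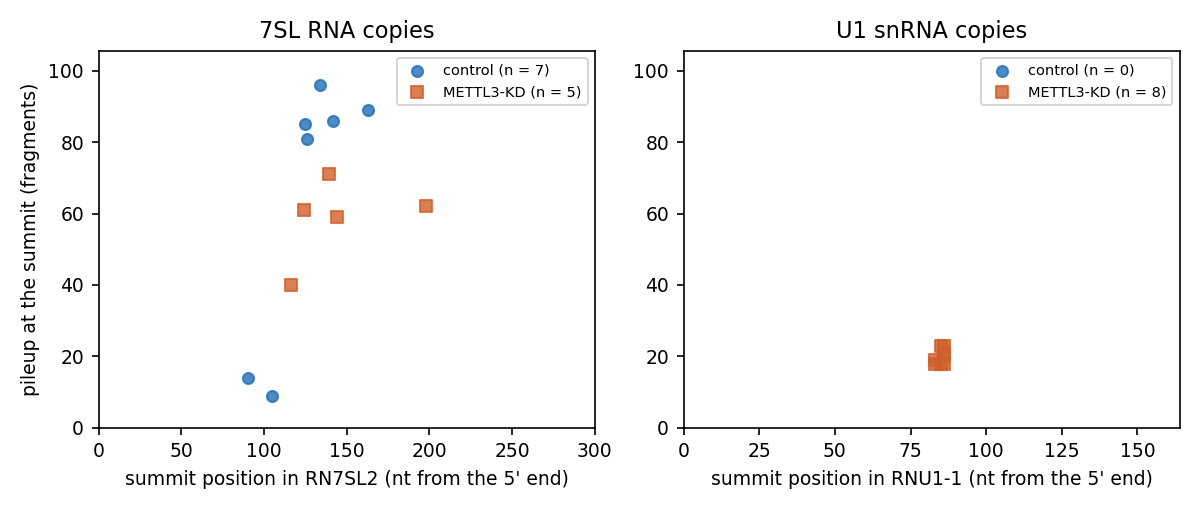
Pileup at the summit (fragments) against the summit position in nucleotides from the 5' end of RN7SL2 (left) and RNU1-1 (right), 1 point per member. Control points (circles, 7 in 7SL and 0 in U1) reach a pileup of 96, and the 8 METTL3-KD points (squares) in U1 fall on positions 83 to 86.

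The remaining matched members were of U2 and mitochondrial sequence. A METTL3-KD member with a pileup of 13 (chr11:62609162-62609268) lay in RNU2-2P, a U2 snRNA gene, which overlaps a 5'UTR of WDR74 in the annotation. Input reads for the 2 genes, 8229 and 8229 in the control and 1626 and 1658 in the METTL3-KD cells, cannot be told apart. Its 29 bases around the summit (chr11:62609166-62609194, minus strand) held no DRACH match.

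RNU2-2P: atattaaatggatttttggaaataggaga

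On the mitochondrial chromosome the control list had 1 member, with a pileup of 51 and a fold of 3.12, and the METTL3-KD list had 3, with pileups of 40, 35 and 19 and folds of 6.53, 6.64 and 4.4. The mitochondrial members are left without annotation and sequence, since the authors' hg19 and the reference used here hold different mitochondrial sequences.

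Members shared positions between the lists more often than other peaks did, and every shared member was 7SL or mitochondrial. In the control list 6 of 91 members (6.59%, Wilson 95% interval 3.06 to 13.6) overlapped a METTL3-KD peak, against 11 of 2208 other peaks (0.498%; Fisher's exact test, two-sided, adjusted p = 0.000511). In the METTL3-KD list 6 of 110 members (5.45%, 2.52 to 11.4) overlapped a control peak, against 11 of 977 (1.13%; Fisher's exact test, adjusted p = 0.0206). The partners were members of the other list in all 6 cases. Without the matched members the counts were 0 of 83 and 0 of 92, which allow shares of up to 3.61% and 3.26%. These tests treat peaks of 1 library as independent, and 5 of the 6 shared members in each list are copies of 7SL. With the host gene in place of the position, the shares were 10.3% and 23.1% for members and 11.0% and 20.3% for other peaks, and neither difference passed the test (adjusted p = 1 and 0.724).

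Only DHX9, apart from the 7SL sites, had members in both lists. DHX9 encodes an RNA helicase. Its control member (chr1:182823133-182823238, pileup 4) and its METTL3-KD member (chr1:182847131-182847235, pileup 7) both lay in coding sequence, with summits 23997 bases apart in the genome. The input lanes held 637 and 621 DHX9 reads in the control cells and 190 and 187 in the METTL3-KD cells. S100A4, a calcium-binding protein of the S100 family, had 2 control members, both with a pileup of 4 and 218 bases apart, 1 in coding sequence and 1 in the 3'UTR. NIBAN2 had 2 METTL3-KD members in coding sequence, with pileups of 6 and 5, 19926 bases apart.

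Coding members are shown for these genes, since the repeated members can be compared there, and for 6 others of the highest pileups. Each stretch is 61 bases of genomic sequence around the summit on the strand of the gene, with DRACH matches in capitals. Those of DHX9 (chr1:182823156-182823216, plus strand for the control and chr1:182847153-182847213, plus strand for METTL3-KD) and S100A4 (chr1:153516344-153516404, minus strand) include 3 to 9 bases outside coding sequence. The NIBAN2 stretches are chr9:130289522-130289582, minus strand and chr9:130269596-130269656, minus strand.

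DHX9, control: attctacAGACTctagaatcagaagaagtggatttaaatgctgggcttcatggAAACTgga
DHX9, METTL3-KD: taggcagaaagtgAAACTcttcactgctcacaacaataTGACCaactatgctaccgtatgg
S100A4, control: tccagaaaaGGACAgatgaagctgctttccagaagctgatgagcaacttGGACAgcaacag
NIBAN2, METTL3-KD, pileup 6: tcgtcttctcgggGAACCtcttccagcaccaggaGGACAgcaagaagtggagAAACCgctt
NIBAN2, METTL3-KD, pileup 5: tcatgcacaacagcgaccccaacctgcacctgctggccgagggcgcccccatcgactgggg

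The others are PDS5B (chr13:33247411-33247471, plus strand), ZNF746 (chr7:149189981-149190041, minus strand), NISCH (chr3:52522417-52522477, plus strand), EIF3D (chr22:36920665-36920725, minus strand), ATP5F1E (chr20:57605384-57605444, minus strand) and H2AC14 (chr6:27782394-27782454, minus strand). PDS5B is a cohesin regulator, EIF3D a subunit of the translation initiation factor eIF3, ATP5F1E a subunit of the mitochondrial ATP synthase and H2AC14 a histone H2A. NISCH, EIF3D, H2AC14 and the NIBAN2 member with a pileup of 5 held no DRACH match in these 61 bases.

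PDS5B, control: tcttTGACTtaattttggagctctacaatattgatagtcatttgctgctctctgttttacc
ZNF746, control: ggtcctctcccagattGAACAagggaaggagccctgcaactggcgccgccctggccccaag
NISCH, METTL3-KD: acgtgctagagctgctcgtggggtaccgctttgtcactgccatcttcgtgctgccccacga
EIF3D, METTL3-KD: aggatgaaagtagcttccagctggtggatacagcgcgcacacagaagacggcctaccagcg
ATP5F1E, METTL3-KD: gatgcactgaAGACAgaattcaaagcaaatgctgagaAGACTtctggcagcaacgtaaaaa
H2AC14, METTL3-KD: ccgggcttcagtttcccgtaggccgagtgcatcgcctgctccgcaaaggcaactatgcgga

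Apart from the matched RNAs, the highest pileups were single peaks in many genes. For the control cells they were PLRG1 (pileup 7, 3'UTR), which encodes a spliceosome component, and ALG8 (6, intron), an enzyme of N-glycan assembly. In the METTL3-KD list they were H2AC14 (8, coding sequence) and, with a pileup of 7, NISCH, NUDT5, DHX9, ATP5F1E, EIF3D and an intergenic site on chromosome 15. The members lay in 86 and 103 host genes. The host gene was protein-coding for 77 of 90 annotated control members (85.6%) and 88 of 107 METTL3-KD members (82.2%). Annotated 7SL copies held 6 control and 4 METTL3-KD members, snRNA genes 0 and 8, lncRNAs 3 and 2, and 3 members of each list were intergenic.

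Most of these members were narrow, but a larger share of the peaks with a pileup under 4 was narrow. Each read was extended to 100 bases, so a peak of 104 bases holds extended reads whose ends lie within 4 bases of each other. The median length of the members without a match was 104 bases in both lists, and 68 of 83 control members (81.9%) and 84 of 92 METTL3-KD members (91.3%) were at most 107 bases long. At pileups of 1, 2 and 3 the share was 99.7%, 97.1% and 93.3% of control peaks. In the METTL3-KD list it was 100%, 96.2% and 100%. Lengths of 120 bases or more occurred in 11 control members, from RPS9 (120 bases) to HNRNPC (409 bases), and in 5 METTL3-KD members, with MTHFD1L the longest (151 bases). For 76 of 83 control members (91.6%) and 52 of 92 METTL3-KD members (56.5%), the fold was within 0.01 of the pileup plus 1, the value that a pseudocount of 1 gives where the input level is near 0. This was not particular to members: at a pileup of 3, 253 of 298 control peaks and 52 of 102 METTL3-KD peaks tied at a fold of 4.

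The members lay in introns less often than other peaks of the same list. In the control list 15 of 90 annotated members (16.7%, 10.4 to 25.7) had their summit in an intron, against 658 of 2208 other peaks (29.8%; Fisher's exact test, adjusted p = 0.023). In the METTL3-KD list the counts were 28 of 107 (26.2%, 18.8 to 35.2) and 420 of 977 (43.0%; adjusted p = 0.00676). The control call was lost with 1 peak per host gene (adjusted p = 0.0556), with protein-coding introns placed before noncoding exons (adjusted p = 0.0938) and at a pileup of 5 or more (adjusted p = 0.357). The METTL3-KD call was lost at a pileup of 3 or more (adjusted p = 0.192).

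The 3'UTR held 31 of 90 control members (34.4%, 25.4 to 44.7) against 26.6% of other control peaks, and 24 of 107 METTL3-KD members (22.4%, 15.6 to 31.2) against 21.7%. Neither difference passed the test (adjusted p = 0.229 and 1). Coding sequence held 22 control members (24.4%) against 24%, and 31 METTL3-KD members (29%, 21.2 to 38.2) against 19.1% (adjusted p = 1 and 0.0649). The METTL3-KD difference in coding sequence passed the threshold once the matched peaks were left out (33.7% against 19.2%, adjusted p = 0.00782), a choice made after the data were seen, and also with coding sequence placed before the 3'UTR (42.1% against 27.1%, adjusted p = 0.00981) or with q values under 0.01 alone (29% against 17.6%, adjusted p = 0.0241). Noncoding exons held 15 control members (16.7%) and 16 METTL3-KD members (15%) against 9.28% and 8.6% (adjusted p = 0.0697 and 0.113). At a pileup of 5 or more both differences passed (30% against 9.39%, adjusted p = 0.0265, and 22.6% against 8.41%, adjusted p = 0.00507). The 6 control members in noncoding exons at that pileup were all 7SL copies. Without the matched peaks the control share of members was 10.8% against 9.28% (Fisher's exact test, adjusted p = 0.785). The METTL3-KD difference then turned, at 4.35% against 8.32% (adjusted p = 0.372). At a pileup of 3 or more the control difference turned, at 9.02% against 9.69% (adjusted p = 1). 5'UTRs held 4 and 5 members. All feature tests treat peaks as independent.

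**Figure D3:**
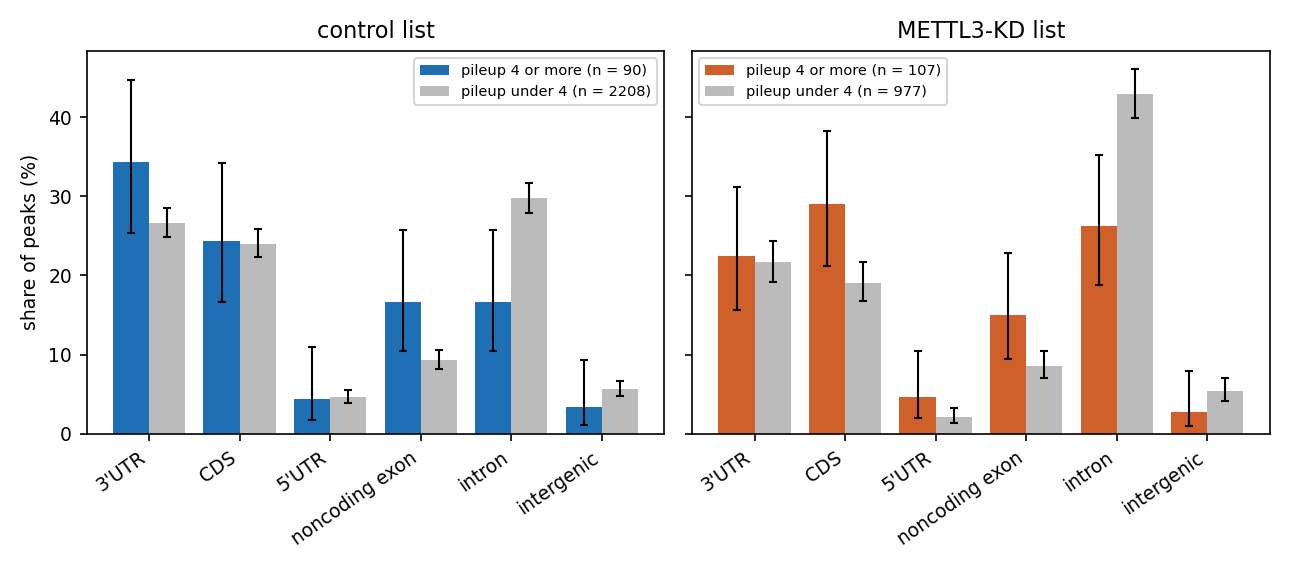
Share of peaks (%) whose summit lay in each feature class, for members (coloured, n = 90 control and 107 METTL3-KD) and peaks with a pileup under 4 (grey, n = 2208 and 977), with Wilson 95% intervals. Introns hold 16.7% of control and 26.2% of METTL3-KD members, below the grey bars at 29.8% and 43.0%.

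The 3'UTR class includes summits that are coding in the canonical transcript, because any transcript with a 3'UTR at the summit counted. Of the 31 control members in this class, 9 lay before the canonical stop codon and 19 at or after it, a median of 321 nt after it among the 19. Of the 24 METTL3-KD members, 11 lay before it and 12 at or after it, a median of 518 nt. Among all members in exons of coding transcripts with a stop codon distance, 19 of 53 in the control list (35.8%) and 22 of 58 in the METTL3-KD list (37.9%) were within 400 nt of the stop codon, and the share was 28.2% and 26.6% among the other peaks. These shares were not tested.

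The 3'UTR members of PLRG1, HNRNPC and S100A4 in the control list and of NUDT5 and DTD1 in the METTL3-KD list are shown by the 29 bases around the summit, with DRACH matches in capitals, since they are the 3'UTR members of highest pileup or of genes named here. The stretches of PLRG1 and DTD1 are coding in another transcript, and that of PLRG1 held no match. HNRNPC binds pre-mRNA and is counted among the m6A readers, NUDT5 hydrolyses ADP-ribose, and DTD1 is an editing enzyme for D-aminoacyl-tRNA. The stretches are chr4:155457816-155457844, minus strand for PLRG1, chr14:21679098-21679126, minus strand for HNRNPC, chr1:153516142-153516170, minus strand for S100A4, chr10:12208728-12208756, minus strand for NUDT5 and chr20:18724770-18724798, plus strand for DTD1.

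PLRG1: gattttaatgaatgtggaattttttctct
HNRNPC: actTAACAataaaaaggatgtatggtttt
S100A4: ttttttttccaccctggctccttcAGACA
NUDT5: gtgtTGACTtttagggcctccagcagctc
DTD1: gaggaaagaaaAGACCagagctaagggac

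The share with a DRACH match did not differ between members and other peaks beyond the counting error. Matches were sought on the strand of the host gene alone, within 50 nt of the summit, since peaks carry no strand. They were found at 68 of 87 control members in genes (78.2%, 68.4 to 85.5), against 1758 of 2083 other peaks (84.4%; Fisher's exact test, adjusted p = 0.239). At METTL3-KD members the count was 89 of 104 (85.6%, 77.6 to 91.1), against 782 of 924 (84.6%; adjusted p = 1). Over all deposited peaks in genes the share was 84.1% and 84.7%. No share was computed for windows away from peaks, so these shares do not tell m6A sites from other sequence. The median window of a member with a match had its nearest DRACH adenosine 16 nt from the summit in the control list and 12 nt in the METTL3-KD list, and 24 of 87 (27.6%) and 40 of 104 (38.5%) had one within 10 nt, against 32.5% and 34.1% of other peaks. GGAC, which is the start of a DRACH match where A, C or T follows, was present at 26 control members (29.9%) and 39 METTL3-KD members (37.5%), against 30.4% and 27.7% of other peaks. The GGAC shares did not pass the test in either list (Fisher's exact test, adjusted p = 1 and 0.0897), and the shares within 10 nt were not tested. The 101-base windows of the 2 lists' members had a median GC content of 51% and 52.5%, and those of other peaks 47.5% and 45.5%.

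**Figure D4:**
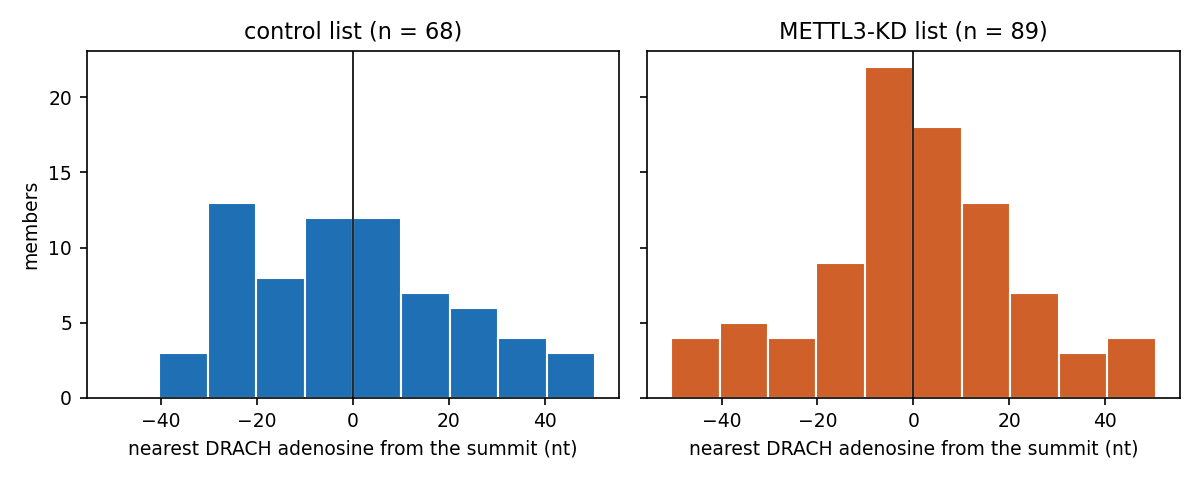
Number of members by the position of the nearest DRACH adenosine relative to the summit (nt, negative towards the 5' end of the gene, bins of about 10 nt), for the 68 control and 89 METTL3-KD members with a match within 50 nt. The nearest match lies within 10 nt in 24 control and 40 METTL3-KD members.

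Members of the METTL3-KD list had another exact copy of their sequence more often than other peaks of that list. The 50 bases around the summit occurred elsewhere in the genome for 20 of 107 METTL3-KD members (18.7%, 12.4 to 27.1), against 79 of 972 other peaks (8.13%; Fisher's exact test, adjusted p = 0.00676). In the control list the counts were 10 of 90 (11.1%, 6.15 to 19.3) and 252 of 2204 (11.4%; adjusted p = 1). The control direction turned with the threshold, with 4.38% against 12.9% at a pileup of 3 or more (adjusted p = 4.8e-06) and 35% against 11.2% at 5 or more (adjusted p = 0.0176). The lists were not tested against each other. Without the matched members the METTL3-KD share was 6.52%, against 8.05% of other peaks (adjusted p = 1). The METTL3-KD members with a copy and no match were H2AC14, ARHGAP23P1, ANAPC1, EIF3CL, RPL3 and EEF1B2P6, and those of the control list were RPS9, RPL4P3, ITGB1 and DECR1, among them pseudogenes and genes with processed copies.

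Host genes of the members were compared between the inputs by the log2 ratio of METTL3-KD over control reads, with a ratio beyond 2 in size counted. Most control counts were either 0 or at least 200. Of the 79 control-list hosts with at least 10 reads in both inputs together, 52 (65.8%) had 0 control reads and 24 had 200 or more. Of the 90 METTL3-KD-list hosts, 42 (46.7%) had 0 control reads and 42 had 200 or more. Over all 9931 genes with at least 10 reads, 74.3% had 0 control reads. In a bulk sample, fewer cells with a transcript and less of it per cell cannot be told apart.

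The ratio was over 2 for 59 of the 79 control-list hosts (74.7%) and for 57 of the 90 METTL3-KD-list hosts (63.3%), and for 79.1% of all genes. It was under −2 for 5 of 79 (6.33%) and 10 of 90 (11.1%), and for 7.37% of all genes. The median log2 ratio was 5.68 and 4.36 for the hosts and 5.6 for all genes, and with a count of 0 read as 3 it was 5.86, 4.42 and 5.7. Of the hosts above 2, 52 of 59 and 42 of 57 had 0 control reads, for which the fold is only a bound on the ratio of reads. The control input held 310 reads for each read kept by the peak caller and the METTL3-KD input 25.7, and the part of this in the ratios was not tested. Among genes with at least 10 reads in each input, the median log2 ratio was -0.61, and scaling by total counts moved it by -1.36 and DESeq2 size factors by 0.26, so no direction is given for genes with ratios of that size.

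**Figure D5:**
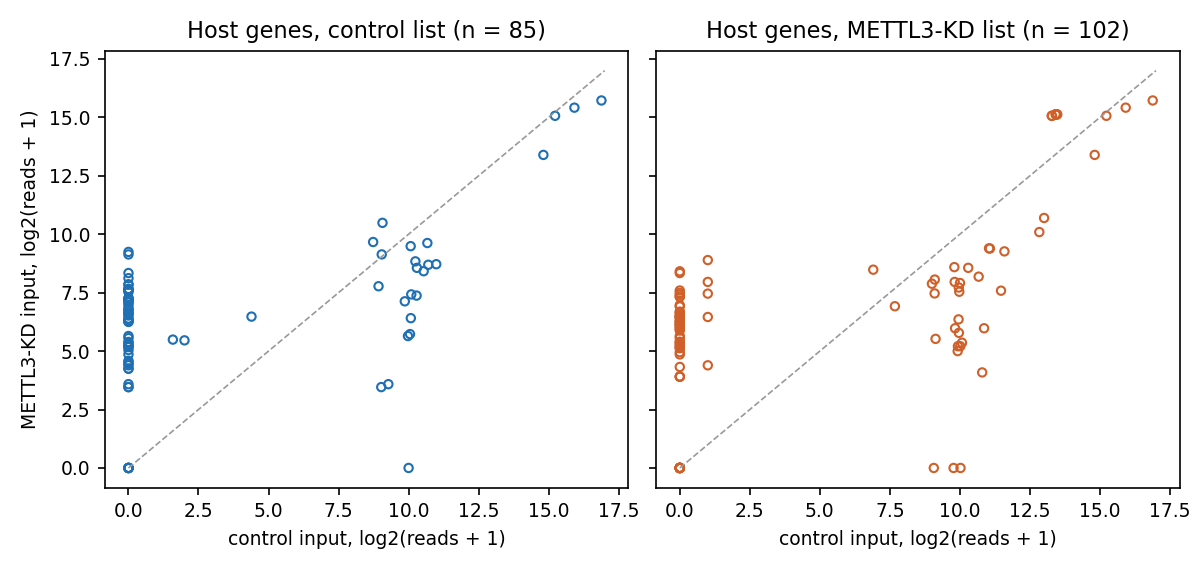
Input reads of member host genes, log2(reads + 1), in the control (x axis) and METTL3-KD (y axis) inputs, lanes summed, 1 point per gene (85 control-list and 102 METTL3-KD-list hosts with a row in the count table). The dashed line marks equal reads. Of the control-list hosts, 58 lie at 0 control reads and 7 at 0 METTL3-KD reads, and of the METTL3-KD-list hosts 54 and 15.

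Some hosts had fewer reads in the METTL3-KD input. Among control-list hosts, ATG2B, an autophagy protein, was counted 508 and 516 times in the control input and 0 times in either METTL3-KD lane. With a floor of 3 reads for the summed input this is at least 62.5-fold fewer reads, the lowest bound over the 3 scalings (TMM, total counts and DESeq2 size factors), as are the bounds below. All these bounds are on reads and not on separate molecules. The inputs held 310 (control) and 25.7 (METTL3-KD) reads for each read kept by the peak caller. The bounds may therefore overstate the difference in RNA, for zeros in either input. PDAP1 had 267 and 253 against 4 and 6 reads (log2 ratio -3.42), and CTDSP2, a phosphatase, 323 and 297 against 3 and 8 (-3.54). The other 2 were DEAF1 (-2.15) and ATMIN (-2.14). Their lowest folds over the 3 scalings were 3.76 and 3.73, log2 ratios under 2 in size. In the METTL3-KD list, LYPLA2 and DHRS4, which has near-identical paralogs and is uncertain, had 1039 and 536 reads when control cells were the source but 0 when METTL3-KD cells were, which is at least 63.4-fold and 32.7-fold lower, and each still carried a METTL3-KD member with a pileup of 5. TCTN3 had 859 and 918 control reads and 5 and 11 METTL3-KD reads (log2 ratio -4.54). A further 6 were SRCAP, DPH1, EEF1B2P6, KIAA1522, TWF2 and ST6GALNAC6, with ratios of -2.74 to -2.0. The lowest fold of ST6GALNAC6 over the 3 scalings was 3.38, a log2 ratio under 2 in size.

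Hosts with more METTL3-KD reads included both genes with several control reads and genes with none. HNRNPC had 217 and 208 control reads and 419 and 393 METTL3-KD reads (log2 ratio 3.12). Its lowest fold over the 3 scalings was 3.38, a log2 ratio under 2. EIF3D had 63 and 56 against 179 and 178 (3.74), with a lowest fold of 5.3. S100A4 had 0 and 0 against 291 and 270, at least 330-fold higher, and carried both of its members in the control list. NISCH had 0 and 0 against 27 and 22 reads, at least 28.9-fold higher. Across the hosts, 58 of the control list's and 54 of the METTL3-KD list's had 0 control reads, among them the ribosomal protein genes RPS9 and RPS29. Whether the deposited control columns hold the reads of all genes is not known, so a control count of 0, and every ratio or bound that rests on one, describes the table and may not describe the cells. For 6 and 12 hosts, both inputs were at 0.

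Apart from the small structured RNAs described above, few members lay in the gene groups examined, and most of these groups had few peaks. Among all peaks, 91 of 2299 in the control list and 110 of 1087 in the METTL3-KD list were members. Whether any group departed from that share was not tested, so a group without a member is no result about the group. The m6A writers, METTL3, METTL14, WTAP and their partners, had no member, and their 0 control and 2 METTL3-KD peaks were below the threshold. All 7 writers with at least 10 reads had a ratio over 2, each with 0 control reads, where 79.1% of all genes had such a ratio and 74.3% had 0 control reads. The m6A readers had 1 member, HNRNPC (pileup 5, chr14:21679060-21679468), of 8 control peaks, and the erasers FTO and ALKBH5 had none. The mitotic regulators had no member among 6 control and 2 METTL3-KD peaks, and 14 of 22 had a ratio over 2, against 79.1% of all genes. The ratio was under −2 for 1 of them, PLK1 (507 and 542 control reads, 7 and 12 METTL3-KD reads, -3.54), against 7.37% of all genes. The chaperones and a list of 9 named lncRNAs had no member among 9 and 4 control peaks.

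Most other groups had 1 member in a list. Among pancreatic cancer drivers these were GNAS, the stimulatory G protein subunit, in the control list (noncoding exon) and ATM, the DNA damage kinase, in the METTL3-KD list (coding sequence), each with a pileup of 4. The GNAS input lanes held 815 and 814 control and 392 and 396 METTL3-KD reads, and the ATM lanes 0 and 0 against 81 and 98. Of the cytoskeleton genes, VCL (vinculin, control) and MYH9 (non-muscle myosin, METTL3-KD) had members with a pileup of 4. The splicing factor U2AF2 had a control member with a pileup of 4, the glycolytic enzyme PFKP a METTL3-KD member with a pileup of 4, and the poly(A)-binding protein PABPC1 a METTL3-KD member with a pileup of 5. The ribosomal protein genes had RPS9 in the control list (coding sequence, pileup 5) and RPL3 (coding sequence, pileup 5) and RPL29 (intron, pileup 4) in the METTL3-KD list beside the RPS29 site, of 19 control and 3 METTL3-KD peaks.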

How the data were processed

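MeRIP-seq and input libraries of control and METTL3-KD MIAPaCa-2 cells were analysed from the deposited files. The authors checked reads with FastQC, removed rRNA reads with Bowtie2, aligned to hg19 with HISAT2 and called peaks from 1 alignment per library with MACS2 2.1.1.20160309 (extension 100 bases, 1 read per position). The header gives a q value limit of 0.05 and the study's methods 0.01. The peak files hold, per the file headers, a pileup signal, a fold enrichment ratio and −log10 q values, beside −log10 p values that were not used. The deposited counts are raw featureCounts reads per gene, with input lanes only.

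Summits were annotated with GENCODE 44 on GRCh37, without strand, in the order 3'UTR, CDS, 5'UTR, noncoding exon, intron. Matches used blastn 2.17.0. Shares were compared by two-sided Fisher's exact tests (scipy 1.17.1), adjusted by Benjamini-Hochberg over 18 tests, with Wilson 95% intervals. The tests compare peaks of 1 library, not conditions. Input lanes were summed and scaled by TMM (edgeR 4.0.16, prior count 2), and genes with at least 10 reads kept; with 1 library per condition no p-value across genes was computed. The ratio step was checked on simulated counts.

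The members, gene lists and matches were chosen with earlier results of these data known. Named were the 10 members of highest pileup per list, members shared by the lists, genes with several members, members in the gene lists, the 2 peaks of highest fold on each side of the threshold, PLK1 and METTL3. Other genes were named after their values were seen. Some members are counted but not reported here by name.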

Additional observations from a re-analysis of the deposited data

How the results depend on the processing

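Of 200 recomputed values, 156 kept their direction and their side of the threshold or stayed within 1.5 times, 16 reversed, 15 moved, 8 became stronger and 5 weaker; except where stated, the cause was not tested. At a pileup of 3 or more, with 389 control and 212 METTL3-KD members, the control shares were 33.0% for the 3'UTR (adjusted p = 0.0165), 9.02% for noncoding exons, 1.55% for intergenic summits (0.000256) and 4.38% for sequences with another copy (4.8e-06), and the METTL3-KD shares were 35.9% for introns (0.192) and 83.3% for DRACH. The hosts counted were then 14 lower and 229 higher in the control list and 115 higher in the METTL3-KD list. In the main setting 79.1% of all genes were higher and 7.37% lower. For this and the other settings below, the number of hosts tested and the share over all genes are not given. These host counts are therefore no result about the members. At a pileup of 5 or more, with 21 and 65 members, the control shares were 15% for CDS, 15% for introns (0.357), 30% for noncoding exons (0.0265), 85.0% for DRACH and 35% for copies (0.0176), the METTL3-KD shares were 21.0% for the 3'UTR and 22.6% for noncoding exons (0.00507), and the hosts were 1 lower and 15 higher, and 5 lower and 31 higher. Other annotation orders gave 21.1% for control introns (0.0938), and 9.35% for the 3'UTR and 42.1% for CDS (0.00981) in the METTL3-KD list. With 1 peak per host gene, control introns were at 16.9% (0.0556), and with q values under 0.01, METTL3-KD CDS was at 29% (0.0241). By host gene, the overlap was 10.3% and 23.1% (0.724), and DRACH within 100 nt 96.6% and 94.2%. Without the 7SL, U1, U2 and mitochondrial matches, an alternative chosen after seeing the data, the overlap was 0% and 0%, the control 5'UTR share 4.82%, and the METTL3-KD shares 33.7% for CDS (0.00782), 4.35% for noncoding exons, 83.1% for DRACH and 6.52% for copies. Lower control-list hosts were 3 with DESeq2 size factors, and higher ones 38 at 50 reads or more, where fewer genes were tested. Leaving out a lane in turn gave 53 to 54 higher and 4 lower control-list hosts, and 53 higher and 9 lower METTL3-KD-list hosts. With lanes treated as replicates in edgeR and the lane number as a replicate block, 3 control-list and 9 METTL3-KD-list hosts were lower and 59 and 57 higher, as without the block; lanes of the same number did not deviate together (r = -0.0132 over 1871 genes), so the number pairs nothing. With 4508 to 52141 reads kept per library, most peaks rest on few fragments, and absence of a peak is not absence of methylation.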
